A study of Mus musculus with 6 samples.

Results

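The RNA-sequencing dataset holds 10 genes that are read as reporters of T cell receptor (TCR) signal strength, found in the deposited table by their symbols among 78275 genes. *Cd5* and *Cd6* were taken as stable readouts of self-reactivity, and *Nr4a1*, *Nr4a2*, *Nr4a3*, *Egr1*, *Egr2*, *Egr3*, *Cd69* and *Irf4* as 8 immediate early and activation genes. Libraries were made from CD4-CD8+ TCRβ high T cells of 3 WT and 3 BIT mice on the C57BL/6 background, 9 to 10 weeks of age and labelled male, with 1 mouse per library. BIT mice are homozygous for an allele in which the sequence of *Psmb11*, which encodes the thymic cortical proteasome subunit β5t, takes the place of *Psmb8*, which encodes the immunoproteasome subunit β5i, so β5t is made where β5i normally would be. The study's BIT mice came from a single founder line, BIT #1-2, except where it states another, and it states none for these libraries. The sample source is lymph nodes, and the sample protocol also names spleens. The comparison asks whether CD8+ T cells that matured in BIT mice carried a different level of these TCR signal reporters.

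The TCR of a naive CD8+ T cell keeps touching self-peptides on MHC class I, and the strength of that contact leaves a durable mark on the cell. CD5 and CD6 are related scavenger receptor proteins at the T cell surface that dampen TCR signalling, and CD5 in particular is set during positive selection in proportion to self-reactivity and then maintained in naive cells. The NR4A nuclear receptors and the EGR zinc finger factors are instead switched on within minutes to hours of TCR ligation and decay quickly, CD69 is an early surface activation antigen that holds cells in lymphoid tissue, and IRF4 is a transcription factor induced in step with TCR signal strength.

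RefSeq start sites gave a window for 6 of the 10 genes, *Cd5*, *Nr4a1*, *Nr4a2*, *Nr4a3*, *Egr2* and *Irf4*, and the 250 bases upstream of each were searched on both strands. *Egr2* had 5 RefSeq windows, of which the window nearest its Gencode canonical start was used. The motifs were the cAMP response element TGACGTCA, its core TGACG, the EGR sites GCGTGGGCG and GCGGGGGCG, the AP-1 site TGANTCA and the CArG box bound by serum response factor. The full cAMP response element contains its core. The core was added to the search after these windows had been read. All 6 windows are shown, those of *Nr4a1*, *Nr4a2*, *Nr4a3* and *Egr2* because they hold the core and those of *Cd5* and *Irf4* because they do not. The capitals mark the core on either strand, the EGR site in *Nr4a1* and the CArG box in *Egr2*. All are on GRCm39 and written in the direction of transcription: *Cd5* at chr19:10716339-10716588 on the minus strand, *Nr4a1* at chr15:101164477-101164726 on the plus strand, *Nr4a2* at chr2:57014016-57014265 on the minus strand, *Nr4a3* at chr4:48045055-48045304 on the plus strand, *Egr2* at chr10:67373449-67373698 on the plus strand and *Irf4* at chr13:30932966-30933215 on the plus strand.
Cd5: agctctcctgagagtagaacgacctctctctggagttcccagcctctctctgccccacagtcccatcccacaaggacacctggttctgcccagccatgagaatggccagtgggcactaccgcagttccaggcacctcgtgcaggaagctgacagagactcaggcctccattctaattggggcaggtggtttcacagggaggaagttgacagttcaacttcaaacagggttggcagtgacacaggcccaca
Nr4a1: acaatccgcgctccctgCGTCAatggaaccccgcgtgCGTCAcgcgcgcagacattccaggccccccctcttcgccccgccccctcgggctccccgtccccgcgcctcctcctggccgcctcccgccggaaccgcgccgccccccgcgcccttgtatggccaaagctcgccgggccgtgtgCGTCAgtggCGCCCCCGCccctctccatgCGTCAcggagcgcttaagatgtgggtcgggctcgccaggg
Nr4a2: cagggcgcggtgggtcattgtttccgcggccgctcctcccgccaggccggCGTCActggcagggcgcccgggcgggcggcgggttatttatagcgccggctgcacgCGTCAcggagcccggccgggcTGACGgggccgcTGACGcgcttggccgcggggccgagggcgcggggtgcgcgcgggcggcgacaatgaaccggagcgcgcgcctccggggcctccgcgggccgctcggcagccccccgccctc
Nr4a3: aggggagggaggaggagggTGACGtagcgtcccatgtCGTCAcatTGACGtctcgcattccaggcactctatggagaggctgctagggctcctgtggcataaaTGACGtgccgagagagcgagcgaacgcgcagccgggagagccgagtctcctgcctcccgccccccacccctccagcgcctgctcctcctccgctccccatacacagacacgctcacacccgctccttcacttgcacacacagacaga
Egr2: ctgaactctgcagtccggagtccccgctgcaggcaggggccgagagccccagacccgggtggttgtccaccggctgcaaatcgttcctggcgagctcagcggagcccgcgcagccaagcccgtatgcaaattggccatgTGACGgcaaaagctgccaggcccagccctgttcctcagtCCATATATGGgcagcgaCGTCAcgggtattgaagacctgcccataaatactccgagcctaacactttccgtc
Irf4: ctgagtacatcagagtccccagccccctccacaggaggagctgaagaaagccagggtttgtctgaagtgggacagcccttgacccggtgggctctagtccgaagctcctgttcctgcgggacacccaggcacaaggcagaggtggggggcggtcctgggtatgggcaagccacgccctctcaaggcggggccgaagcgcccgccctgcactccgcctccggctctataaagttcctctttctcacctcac
The windows of *Nr4a1*, *Nr4a2* and *Nr4a3* each held 4 cores, and that of *Egr2* held 2. The windows of *Cd5* and *Irf4* held 0. Among 32851 RefSeq windows of the same length, 17.8% held the core at least 1 time, 3.9% at least 2 times and 0.137%, or 45 windows, at least 4 times. These windows were not matched for GC content, and the core contains CG. GC content was 74.4% for *Nr4a1*, 80% for *Nr4a2*, 63.6% for *Nr4a3*, 61.6% for *Egr2*, 56.8% for *Cd5* and 63.6% for *Irf4*. *Nr4a1* also held 1 GCGGGGGCG, found in 2.57% of all windows, and *Egr2* held 1 CArG box, found in 1.47%. TGACGTCA, GCGTGGGCG and TGANTCA, found in 1.55%, 0.536% and 6.75% of all windows, had 0 matches in the 6. The RefSeq start of *Nr4a2* lies 7769 bases from the canonical start in Gencode. These are matches of letters, and no measurement in this dataset bears on binding.

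The edited genes matched the genotype labels, with 10790, 10345 and 8024 estimated counts of *Psmb8* in WT libraries against 73, 59 and 60 in BIT libraries, and 0 against 1926, 1754 and 1226 counts of *Psmb11*. The libraries held 37467678 to 52922675 counts. The library of WT replicate 3 went against its labelled sex, with 66626 counts of *Xist* where the other 5 had 2 to 125, and 0 counts over 4 Y-linked genes where the others had 8474 to 12329. CD8 T cell markers summed to 5443 to 5883 CPM (counts scaled to the library total) in the 6 libraries, and CD4 T cell markers to 3.22 to 5.68 CPM. Of the 8 CD8 T cell markers, 2 were lower in BIT cells at an unadjusted p below 0.05 by limma-voom, beside 4.32% of all genes. None was higher. The 2 were *Cd3g*, at a log2 difference of -0.34, and *Cd247*, at -0.24, each with an adjusted p of 0.531. In both, every BIT library lay below every WT library, beside 5.96% of all genes. Markers of NK cells summed to 3.82 to 6.98 CPM, and the 2 of 4 γδ T cell markers found by symbol to 3.61 to 5.03 CPM. Of the 4 NK cell markers, 1 was higher at an unadjusted p below 0.05 by limma-voom, beside 4.25% of all genes, and 0 were lower. That was *Klre1*, at a log2 difference of 1.04 and an adjusted p of 0.508. Markers of plasmacytoid dendritic cells summed to 27.8 to 52.8 CPM, of which *Bst2* alone made 23.8 to 49.7 CPM. *Siglech*, of the same list, had 5, 8 and 5 counts in WT libraries and 0 in each BIT library. In bulk samples, fewer cells of a type and less RNA per cell cannot be told apart.

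All 10 genes had enough counts to be tested, among 16105 genes in all. Given as CPM per kilobase of annotated exon, the level in WT cells was highest for *Cd5*, at 32.6 ± 3.75 (SD, n = 3), followed by *Cd6* at 29.5 ± 3.09, *Cd69* at 21.1 ± 2.78 and *Egr1* at 16.5 ± 3.20. *Egr3* at 5.72 ± 1.44, *Egr2* at 5.06 ± 0.971 and *Nr4a3* at 3.42 ± 0.231 formed the middle of the order. *Irf4* at 1.90 ± 0.044, *Nr4a1* at 1.42 ± 0.0034 and *Nr4a2* at 0.266 ± 0.050 were lowest. *Cd5* and *Cd6*, *Cd69* and *Egr1*, and *Egr3* and *Egr2* were neighbours whose ranges overlapped in WT cells, and other neighbours did not overlap. The mean levels in BIT cells had the same order except that *Irf4*, at 1.298 ± 0.151, and *Nr4a1*, at 1.21 ± 0.064, overlapped as well. On this scale *Cd5* stood above 95.7% of the genes tested and *Nr4a2* above 13.6%. The order depends on the length used, all annotated exon bases of a gene. These were 5054 for *Cd5*, 7968 for *Cd6*, 4903 for *Irf4* and 10903 for *Nr4a1*. Without division by length, *Cd6* at 208 to 257 CPM in WT cells exceeded *Cd5* at 147 to 185 CPM. Likewise *Nr4a1* at 15.4 to 15.5 CPM exceeded *Irf4* at 9.18 to 9.56 CPM.

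**Figure D1:**
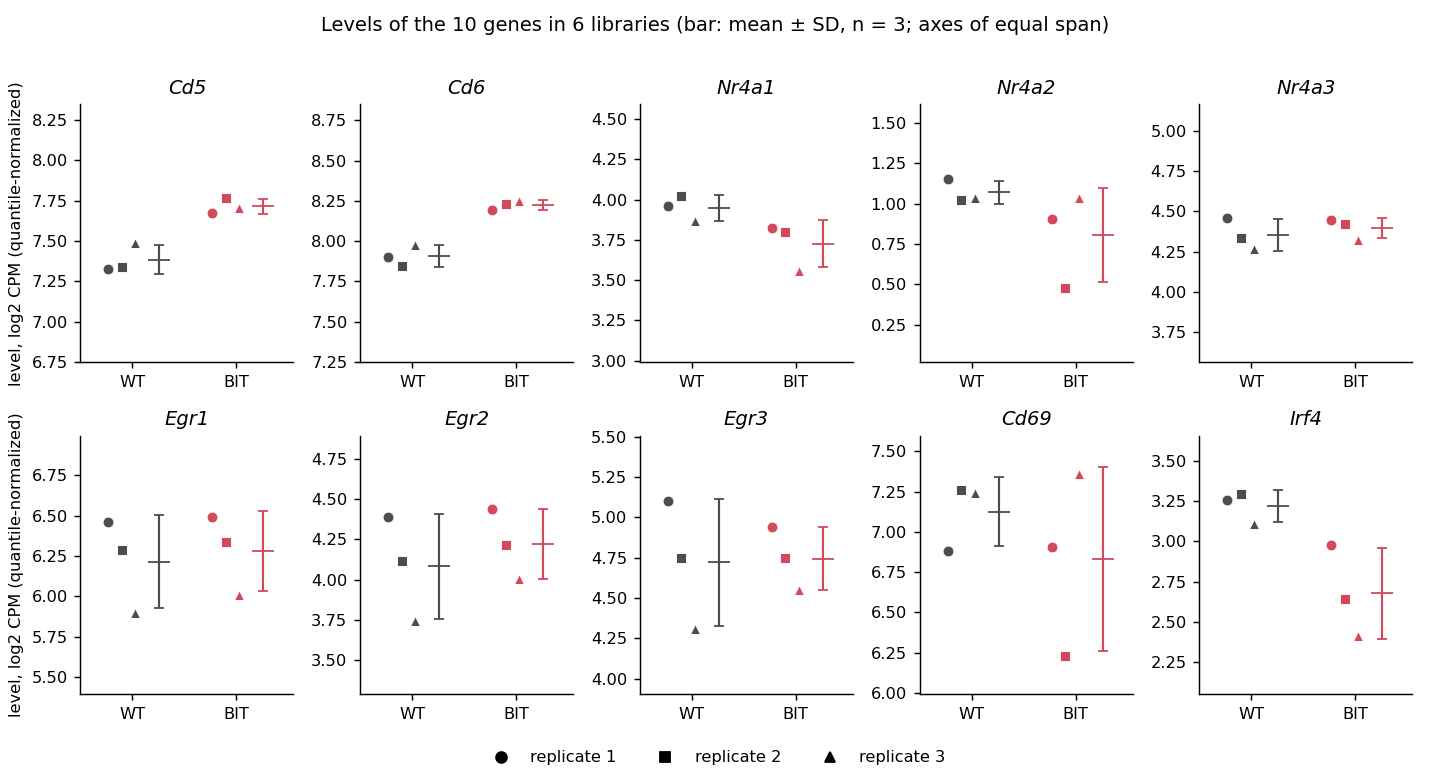
Level of each of the 10 genes in each library, as quantile-normalized log2 CPM on axes of equal span, with WT in grey, BIT in red, marker shapes for the replicate number and a bar for the mean ± SD (n = 3). All BIT points lie above all WT points for *Cd5* and *Cd6* and below them for *Nr4a1* and *Irf4*, while the points of the 3 EGR genes overlap between genotypes.

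The fitted levels of both stable readouts were higher in BIT cells than in WT cells, by 25.7% and 24.6% of the WT level. Neither overlapped between genotypes, and 7.38% of all genes tested likewise had every BIT library above every WT library. *Cd5* had 8564, 7444 and 7381 estimated counts in WT libraries and 8924, 9343 and 8345 in BIT libraries. On the quantile-normalized log2 CPM scale used for the test, its level was 7.33, 7.34 and 7.49 in WT cells and 7.67, 7.77 and 7.70 in BIT cells. The lowest BIT library thus exceeded the highest WT library, WT replicate 3. The difference of *Cd5* was 0.33 ± 0.079 (SE) on the log2 scale, a 1.26-fold higher level with a 95% confidence interval of 0.15 to 0.51 in log2.

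*Cd6*, which binds the adhesion molecule ALCAM, had 12769, 10536 and 10246 counts in WT libraries and 13110, 12916 and 11967 in BIT libraries. Its log2 CPM was 7.90, 7.85 and 7.98 in WT cells and 8.19, 8.23 and 8.25 in BIT cells, again without overlap. The difference was 0.32 ± 0.074 (SE), or 1.25-fold, with an interval of 0.15 to 0.48. By limma-voom with Benjamini-Hochberg adjustment over all 16105 genes, neither difference passed a threshold of 0.05, with an unadjusted p of 0.0025 and an adjusted p of 0.349 for *Cd5* and of 0.0021 and 0.346 for *Cd6*. An exact two-sided permutation test gave p = 0.1 for each, the smallest that 3 mice against 3 can give.

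The call on these 2 genes depended on the test. DESeq2 gave *Cd5* an adjusted p of 0.0068 and *Cd6* one of 0.0045, whereas 0.512% of the 13292 genes to which it gave an adjusted p were called higher. It tested the same libraries, so it adds no replication. The direction was the same in all 15 alternative fits for each gene, with log2 differences of 0.30 to 0.39 for *Cd5* and 0.29 to 0.38 for *Cd6*, while the adjusted p ranged from 0.0068 to 0.999 and from 0.0045 to 0.999. Without WT replicate 3, whose labelled sex the data went against, limma-voom gave log2 differences of 0.38 for *Cd5* and 0.35 for *Cd6*, with adjusted p of 0.189 and 0.225.

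The NR4A genes, *Cd5* and *Cd6* varied less within a genotype than most genes did. The spread around the group means, weighted by voom for the level of the gene, was larger than that of *Cd5* in 80.6% of the genes tested and larger than that of *Cd6* in 93.2%. The share was 76.1% for *Nr4a1*, 85.2% for *Nr4a2*, 84.6% for *Nr4a3* and 53.1% for *Irf4*, so a low spread did not set the stable genes apart from the early ones. In the other direction, 5.16% of genes had a larger spread than *Egr1*, 10.7% than *Egr2*, 5.05% than *Egr3* and 1.27% than *Cd69*.

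Over the 10 genes, limma-voom with Benjamini-Hochberg adjustment called 0 at an adjusted p below 0.05, where 0.137% of all genes tested, or 22 genes, were called. The quasi-likelihood test of edgeR also called 0, and DESeq2 called 2. At an unadjusted p below 0.05 by limma-voom, 2 of the 10 were higher in BIT cells, beside 4.25% of all genes, and 1, *Irf4*, was lower, beside 4.32%. All 3 BIT libraries lay above all 3 WT libraries for 2 of the 10, beside 7.38% of all genes, and below them for 2, *Nr4a1* and *Irf4*, beside 5.96%. The median log2 difference was 0.32 for *Cd5* and *Cd6* and -0.10 for the 8 immediate early and activation genes, against 0.012 over all genes tested.

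**Figure D2:**
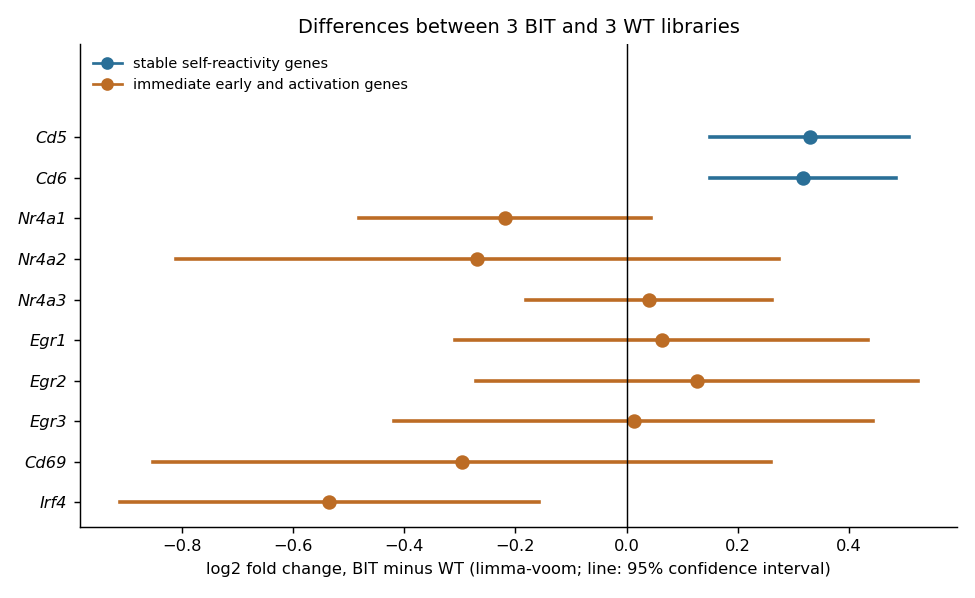
Fitted log2 fold change of each gene (points) with its 95% confidence interval (lines) from limma-voom over 3 BIT and 3 WT libraries. The intervals of *Cd5*, from 0.15 to 0.51, and *Cd6*, from 0.15 to 0.48, lie above 0, that of *Irf4*, from -0.91 to -0.16, lies below 0, and the other 7 include 0.

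The fitted differences of the NR4A orphan nuclear receptors did not share a sign, but the 95% interval of each included 0. *Nr4a1*, which encodes Nur77, the factor behind a widely used reporter of TCR signalling, had 819, 780 and 619 counts in WT libraries and 601, 580 and 466 in BIT libraries. Its log2 CPM was 3.96, 4.02 and 3.86 in WT cells and 3.82, 3.80 and 3.56 in BIT cells. Every BIT library lay below every WT library, beside 5.96% of all genes tested. The closest pair was WT replicate 3 and BIT replicate 1. The log2 difference was -0.22 ± 0.116 (SE), with a 95% interval of -0.48 to 0.04, an adjusted p of 0.644 by limma-voom and an exact permutation p of 0.1.

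*Nr4a2*, which encodes Nurr1, was the least expressed of the 10, with 104, 97 and 106 counts in WT libraries and 69, 51 and 92 in BIT libraries. BIT replicate 2 had the lowest log2 CPM, 0.48, and BIT replicate 3, at 1.04, lay within the WT range of 1.02 to 1.15. The log2 difference was -0.27 ± 0.239 (SE), with an adjusted p of 0.775 by limma-voom and an interval of -0.81 to 0.27. *Nr4a3*, which encodes NOR1, had 1162, 971 and 813 counts in WT libraries and 942, 902 and 779 in BIT libraries. Its log2 CPM of 4.46, 4.33 and 4.27 in WT cells and 4.44, 4.42 and 4.33 in BIT cells overlapped, with a difference of 0.04 and an interval of -0.18 to 0.26. *Nr4a1* overlaps 3 annotated long non-coding RNAs, and *Nr4a3* and the EGR gene *Egr2* overlap 1 each. The strand setting of the counting is not given in the sources used here.

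The 3 EGR factors had much the same level in both genotypes and varied together between libraries. *Egr1*, a target of the ERK pathway through serum response factor, had 4725, 3637 and 2425 counts in WT libraries and 3970, 3460 and 2550 in BIT libraries. Its log2 CPM was 6.46, 6.29 and 5.90 in WT cells and 6.50, 6.34 and 6.01 in BIT cells. The replicate 1 library was highest and the replicate 3 library lowest in each genotype. The log2 difference between genotypes was 0.06 ± 0.164 (SE), with an interval of -0.31 to 0.43.

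*Egr2*, which with *Egr3* restrains T cell activation and supports anergy, had 1105, 831 and 576 counts in WT libraries and 937, 778 and 628 in BIT libraries. Its difference was 0.13 ± 0.175 (SE), with an interval of -0.27 to 0.52. *Egr3* had 1815, 1291 and 838 counts in WT libraries and 1336, 1137 and 914 in BIT libraries, with a difference of 0.01 ± 0.190 (SE) and an interval of -0.42 to 0.44. Adjusted p by limma-voom was 0.931, 0.858 and 0.989 for *Egr1*, *Egr2* and *Egr3*. Without WT replicate 3 the fitted differences of all 3 changed sign, to -0.09, -0.03 and -0.18, so neither direction held.

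*Cd69* was the most variable of the 10 genes. It had 6256, 7052 and 6159 counts in WT libraries and 5290, 3220 and 6559 in BIT libraries, with log2 CPM of 6.88, 7.26 and 7.24 in WT cells and 6.91, 6.23 and 7.36 in BIT cells. BIT replicate 2 was the lowest library and BIT replicate 3 the highest. The log2 difference was -0.30 ± 0.245 (SE), with an interval of -0.85 to 0.26 and an adjusted p of 0.759 by limma-voom, and without BIT replicate 2 it was 0.0058. That library also had the highest summed level of erythroid markers, 56.7 CPM against 1.80 to 15.7 CPM in the other 5, whose part in the result was not tested. Of the genes that work opposite CD69 in tissue egress, *S1pr1*, the egress receptor that CD69 removes from the surface, had a log2 difference of -0.02, which was 0.03 under TMM normalization, and *Klf2*, the factor that drives *S1pr1*, had one of 0.18, with 0 of 2 at an adjusted p below 0.05 by limma-voom.

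*Irf4* had the largest fitted difference of the 10. It had 487, 464 and 382 counts in WT libraries and 323, 250 and 222 in BIT libraries. Its log2 CPM was 3.26, 3.29 and 3.11 in WT cells and 2.98, 2.64 and 2.41 in BIT cells. Every BIT library lay below every WT library, beside 5.96% of all genes tested. The log2 difference was -0.53 ± 0.166 (SE), with an interval of -0.91 to -0.16, and the WT level was thus 1.45-fold the BIT level. It missed the threshold by limma-voom, with an unadjusted p of 0.011 and an adjusted p of 0.508, and the exact permutation p was 0.1. Its direction was the same in 15 of 15 alternative fits, with an adjusted p between 0.153 and 0.999. Without WT replicate 3 the log2 difference was -0.59 for *Irf4* and -0.26 for *Nr4a1*. *Irf4* is also expressed in B lineage and myeloid cells. All 7 B cell markers and all 6 tested of 7 myeloid markers had a fitted level below WT in BIT cells, beside 47.7% of all genes tested. None had an unadjusted p below 0.05 by limma-voom. The B cell markers summed to 341 to 359 CPM in WT and 330 to 367 CPM in BIT libraries, of which *Ighm* alone made 294 to 338 CPM. *Ms4a1* had 231, 309 and 140 counts in WT and 154, 154 and 107 in BIT libraries, and *Pax5* had 300, 337 and 136 against 148, 168 and 100. The myeloid markers summed to 13.0 to 21.1 and 9.15 to 13.96 CPM, with *Cd14* at 3 to 14 counts. Their part in the *Irf4* difference was not tested. Of the partners of these factors, the AP-1 factor *Batf*, which binds DNA jointly with IRF4, had a log2 difference of -0.15, *Irf8*, the closest relative of *Irf4*, one of -0.13, and the retinoid receptor *Rxrb*, of a family that pairs with NR4A receptors, one of 0.12. Of the 7 partners and co-repressors listed, 6 were tested and 0 passed an adjusted or unadjusted threshold of 0.05 by limma-voom.

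The contrast between the stable and the early genes was also read within each library as the ratio of their estimated counts, which needs no scaling between libraries. The log2 ratio of *Cd5* to *Nr4a1* was 3.39, 3.25 and 3.58 in WT cells and 3.89, 4.01 and 4.16 in BIT cells. The ratio of *Cd5* to *Irf4* was 4.14, 4.00 and 4.27 against 4.79, 5.22 and 5.23. In both, every BIT library exceeded every WT library, by 0.62 and 0.94 between the means. The ratios of *Cd5* to *Nr4a2* and *Nr4a3* were likewise higher in all BIT libraries, by 0.76 and 0.35 between the means. The ratios to *Egr1*, *Egr2*, *Egr3* and *Cd69* overlapped between genotypes. *Cd6* gave the same sorting, without overlap for *Nr4a1*, *Nr4a2*, *Nr4a3* and *Irf4* and with overlap for the other 4. All BIT libraries exceeded all WT libraries in the ratio of *Cd5* to 50.3% of all genes tested that had counts in every library, and in the ratio of *Cd6* to 52.7% of them. The 4 of 8 early genes were thus near that share, and the sorting is not particular to them. These ratios contain the *Cd5* and *Cd6* differences given above and are no separate evidence of them.

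**Figure D3:**
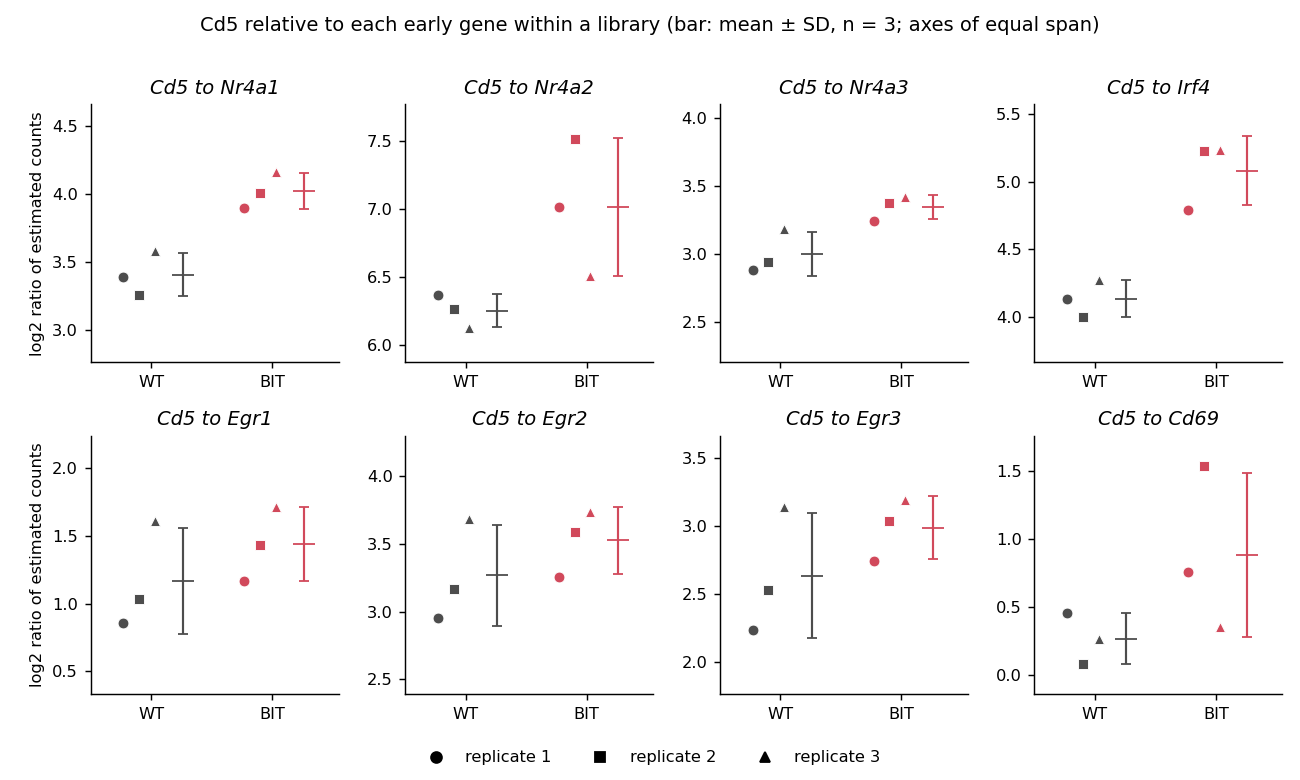
Log2 ratio of the estimated counts of *Cd5* to those of each of the 8 early genes within each library, with WT in grey, BIT in red and a bar for the mean ± SD (n = 3). The upper 4 panels show BIT libraries above all WT libraries, by 0.35 to 0.94 between the means, and the lower 4 show overlap.

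The replicate 3 libraries stood at one end of the range for many early genes, low for the 3 EGR genes and high for *Fos* and *Jun* under each scaling tried. Of the 8 immediate early and activation genes, 6 (*Nr4a1*, *Nr4a3*, *Egr1*, *Egr2*, *Egr3* and *Irf4*) had their lowest level in replicate 3 of both genotypes, beside 25.7% of all genes tested. With libraries scaled by their total counts alone this held for 3 of 8, the EGR genes, beside 9.22% of all genes. Of the 17 tested other early response genes, 10 had their highest level in replicate 3 of both genotypes, beside 21.5% of all genes, and 12 did so under total count scaling, beside 40.7%. Of the 10 members, *Cd6* had its highest level in replicate 3 of both genotypes under quantile normalization and *Nr4a2* under TMM. Under total count scaling 4 did, *Cd5*, *Cd6*, *Nr4a2* and *Cd69*.

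The AP-1 subunits and *Dusp1* carried that pattern. They were singled out after their values were seen, apart from *Dusp1* and *Junb*. *Fos* had 1397, 1175 and 2934 counts in WT libraries and 309, 208 and 1972 in BIT libraries. *Fosb* had 1346, 1163 and 3063 against 153, 86 and 2091, and *Jun* had 6091, 6563 and 12048 against 1320, 558 and 9089. In all 3, both replicate 3 libraries exceeded every other library, and BIT replicates 1 and 2 were the lowest.

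*Dusp1*, which encodes a MAP kinase phosphatase, had 1725, 1544 and 3311 counts in WT libraries and 229, 108 and 2079 in BIT libraries, with a log2 difference of -2.29 ± 0.805 (SE) and an adjusted p of 0.535 by limma-voom. That difference was -1.42 without BIT replicate 2, -3.44 without BIT replicate 3 and -1.26 by edgeR. *Junb* had 6070, 4910 and 6130 counts against 3270, 2756 and 4569, a difference of -0.58 ± 0.208 (SE). *Zfp36*, which encodes an mRNA decay factor, had 8239, 6349 and 6069 counts against 5094, 3633 and 5220, a difference of -0.43 ± 0.146 (SE). It was the only gene of that list with every BIT library below every WT library under quantile normalization, beside 5.96% of all genes. The same held under TMM. Under total count scaling its groups overlapped, and 0 genes of the list lay below in all BIT libraries. Of the 19 other early response genes, *Atf3* and *Egr4* had too few counts to test. By limma-voom 0 of the 17 tested passed an adjusted p below 0.05. At an unadjusted p below 0.05 in that fit, 6 were lower, beside 4.32% of all genes, and 0 were higher. The fitted level was lower in BIT cells for 12 of 17, beside 47.7% of all genes tested, with a median of -0.16.

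With replicates 1 and 2 alone, 2 mice against 2, 5 of the 17 fell at an adjusted p below 0.05 by limma-voom, beside 0.247% of all genes. The libraries left out were those in which *Fos*, *Fosb*, *Jun* and *Dusp1* were highest, and no label sets these libraries apart. The 5 calls follow in part from that choice, so the share of all genes is no measure for them. With all 6 libraries 0 of the 17 passed. With replicates 1 and 2 alone, the log2 differences were -2.07 for *Fos*, -3.16 for *Fosb*, -2.66 for *Jun*, -0.66 for *Junb* and -3.09 for *Dusp1*. In the same fit 0 of the 10 members passed, with differences of 0.38 for *Cd5*, 0.34 for *Cd6*, -0.18 for *Nr4a1*, 0.04 for *Egr1*, -0.50 for *Cd69* and -0.48 for *Irf4*. With replicate 3 entered as a batch, which no label gives, 0 of the 17 and 0 of the 10 passed. The heat shock gene *Hspa1a*, singled out after its values were seen, had 3107, 5735 and 8369 counts in WT libraries and 2146, 817 and 8293 in BIT libraries, lowest in BIT replicate 2 and highest in the replicate 3 libraries, and its part in the differences was not tested.

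**Figure D4:**
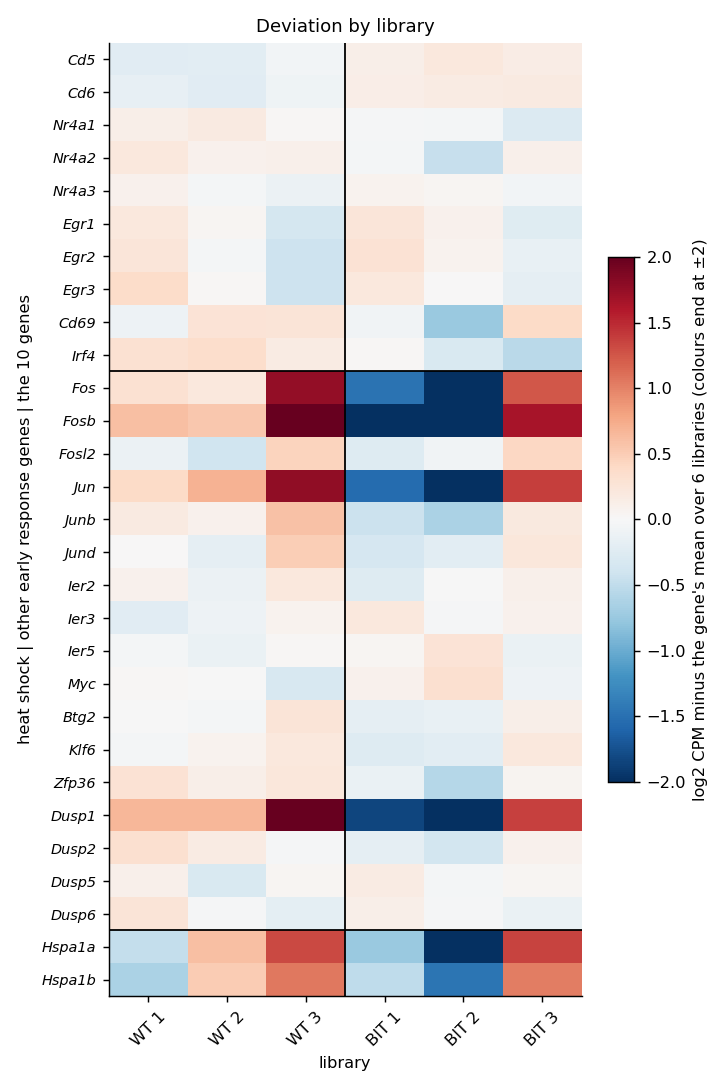
Quantile-normalized log2 CPM of each gene minus its mean over the 6 libraries, as colours that end at ±2, for the 10 genes (top), the 17 tested other early response genes (middle) and *Hspa1a* and *Hspa1b* (bottom), with WT and BIT libraries as columns. *Fos*, *Fosb*, *Jun*, *Dusp1* and the heat shock genes are high in both replicate 3 libraries, whereas *Egr1*, *Egr2* and *Egr3* are low there.

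Genes further along the pathway were described from lists. Of 11 later TCR-induced genes, 10 were tested and all 10 had a fitted level below WT in BIT cells, where 47.7% of all genes tested did, with a median log2 difference of -0.34. With replicates 1 and 2 alone *Ifng* was at 0.33 and *Tnfrsf18* at 0.05, both named after their values were seen. In the fit of all 6 libraries 0 passed an adjusted p below 0.05 by limma-voom. At an unadjusted p below 0.05 in that fit, 2 were lower, beside 4.32% of all genes. *Tnf* had 401, 321 and 250 counts in WT libraries and 200, 103 and 190 in BIT libraries, and *Il2ra*, the IL-2 receptor α chain, had 138, 115 and 141 against 75, 69 and 67. Every BIT library lay below every WT library for these 2 genes, beside 5.96% of all genes. Their log2 differences were -0.75 ± 0.256 (SE) and -0.59 ± 0.228 (SE). *Tnfrsf9*, which encodes the costimulator 4-1BB, had a difference of -0.22 with overlap.

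Of the 13 factors that act upstream of the early genes, all were tested and 0 passed an adjusted p below 0.05 by limma-voom. In the same fit 1 was higher at an unadjusted p below 0.05, beside 4.25% of all genes. That was *Elk4*, a partner of serum response factor, at a log2 difference of 0.24 ± 0.085 (SE). *Creb1*, which binds the cAMP response element, had a difference of 0.15 and *Nfatc2* one of 0.21. Of the 18 negative regulators of TCR signalling, the class to which CD5 belongs, all were tested and 0 passed an adjusted threshold by limma-voom. At an unadjusted p below 0.05 in that fit, 1 was higher and 2 were lower, beside 4.25% and 4.32% of all genes. *Sla*, an adaptor that lowers TCR levels, was higher by 0.21, *Dgka*, a diacylglycerol kinase, was at -0.18, and *Spry1*, an inhibitor of ERK signalling, was at -0.99 with 78, 55 and 76 counts in WT and 30, 21 and 29 in BIT libraries. Of the CD6 ligands, *Alcam* had a difference of -0.18, which was 0.07 without WT replicate 3, and *Cdcp1* had 0 to 3 counts. Of 13 heat shock genes, 0 passed the adjusted threshold by limma-voom. *Hsp90ab1* at 0.24 and *Hspa8* at 0.26 were the 2 higher at an unadjusted p below 0.05 in that fit, beside 4.25% of all genes. *Dnajb1* was at -0.34. Under TMM normalization *Hspa8* was at 0.091 with an unadjusted p of 0.426 by limma-voom and *Hsp90ab1* at 0.23 with one of 0.103, and the groups of both overlapped. Under quantile normalization every BIT library lay above every WT library for both, beside 7.38% of all genes. The same held under total count scaling, beside 980 of the 16105 genes tested.

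*Cd5* and *Cd6* are neighbours on mouse chromosome 19, at 10694480-10716366 and 10766705-10807422 of GRCm39, both on the minus strand and 50.3 kb apart. Of 17 other annotated genes within 100 kb of the pair, 7 were tested, and in 4 of them all BIT libraries lay above all WT libraries. Their log2 differences were 0.09 for *Ddb1*, 0.41 for *Vps37c*, 0.44 for the long non-coding RNA *A430093F15Rik* and 0.41 for *Tmem109*. *Vps37c*, next to *Cd5*, had 467, 368 and 403 counts in WT libraries and 498, 461 and 444 in BIT libraries. None of the 7 passed an adjusted p below 0.05 by limma-voom. In that fit 2 had an unadjusted p below 0.05, beside 4.25% of all genes higher and 4.32% lower. Of the 7, *Vwce* had 1 to 15 counts and *Slc15a3* 9 to 24. All BIT libraries lay above WT for 5 of 15 tested neighbours within 250 kb and 5 of 17 within 500 kb. Within 1000 kb this held for 6 of 42, and 1 lay below. The shares were 57.1% within 100 kb and 14.3% within 1000 kb, beside the 7.38% of all genes. The windows are nested, so the 6 of 42 include the 4 within 100 kb. The neighbours were chosen by position after the *Cd5* and *Cd6* values were known. *A430093F15Rik*, with 105 to 171 counts, overlaps *Cd6* on the opposite strand, where *Cd6* itself had 10246 or more counts in each library.

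The other members each lie on a chromosome of their own. *Nr4a1* is on chromosome 15 at 101151980-101172681, *Nr4a2* on chromosome 2 at 56996842-57014331, *Nr4a3* on chromosome 4 at 48045153-48086447, *Egr1* on chromosome 18 at 34992876-34998049, *Egr2* on chromosome 10 at 67371305-67378018, *Egr3* on chromosome 14 at 70314350-70320063, *Cd69* on chromosome 6 at 129244288-129252399 and *Irf4* on chromosome 13 at 30933209-30950959, all in GRCm39 as annotated protein-coding genes. The values of these genes were summed over their exons and over transcripts.

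The genes whose level followed that of *Cd5* most closely over the 6 libraries, by Pearson correlation of log2 CPM, were *Gm14416* (r = 0.998), *Eomes* (0.993), *Gm11847* (0.991), *Gpr15* (0.988) and *Nod1* (0.987), with 79 genes above 0.95. Of these 5, *Gpr15*, which encodes a homing receptor, was higher in BIT cells by 1.56 in log2 with an adjusted p of 0.0464 by limma-voom, and the other 4, among them the T-box factor *Eomes* at 0.69 and an adjusted p of 0.112, did not pass 0.05. For *Nr4a1* they were *Sms-ps* (0.993), *Gm64819* (0.990), *Tgm2* (0.990), *1110059E24Rik* (0.989) and *Phf11* (0.988), with 63 genes above 0.95. The points share libraries and the genotype difference, so these correlations describe the 6 libraries only.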

How the data were processed

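Ribosomal RNA was depleted from the total RNA of sorted CD8+ T cells (3 WT mice and 3 BIT mice), and libraries were made with a stranded kit. According to the study's methods and submitters' processing notes, the authors used cutadapt 1.18 for trimming and STAR 2.7.0f for alignment to GRCm39, and deposited RSEM 1.3.1 estimated counts per gene on Gencode M38, not normalized. RSEM divides reads that match several genes. Of the deposited values above 0, 84.8% are whole. Estimated counts were rounded, genes were kept with filterByExpr of edgeR 4.0.16, and libraries were quantile-normalized and compared with limma 3.58.1 (voom, lmFit and eBayes) in R 4.3.3, with Benjamini-Hochberg adjustment over 16105 genes. A change common to most genes would be hidden by quantile normalization.

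Members and gene lists were chosen with earlier results of these data known. Named from each list were the 3 genes with the smallest unadjusted p and any with an adjusted p below 0.05, and, for likeness, the 5 genes with the highest correlation with *Cd5* and *Nr4a1*. Alternatives were TMM, edgeR's quasi-likelihood test, DESeq2 1.42.0, other filters, quality weights, a replicate block, each library left out, replicates 1 and 2 alone and replicate 3 as a batch. TMM and total count scalings of the replicate 3 pattern were chosen after seeing the data. No label sets replicate 3 apart, so the fits of replicates 1 and 2 alone and of replicate 3 as a batch rest on the data and not on the design. The fits were tested on simulated data. Positions and exon lengths are from Gencode M39 on GRCm39, and promoter windows from RefSeq on GRCm38.p6, placed on GRCm39 by exact match. Library totals were 37467678 to 52922675 counts, so a count of 0 allows up to 3 counts, or 0.057 to 0.080 CPM, for counting error only.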

Additional observations from a re-analysis of the deposited data

How the results depend on the processing

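Over 15 alternatives, *Cd5*, *Cd6*, *Nr4a1*, *Nr4a2* and *Irf4* kept their direction in all, *Nr4a3*, *Egr2* and *Cd69* in 14, *Egr1* in 13 and *Egr3* in 11. All genes called at an adjusted p below 0.05 numbered 22, against 14 with edgeR, 125 with DESeq2, 71 with replicates 1 and 2 alone, 42 with replicate 3 as a batch and 1 to 37 with a library left out (1 without WT replicate 1, 2 without BIT replicate 2, 4 without WT replicate 2, 9 and 11 without BIT replicates 1 and 3, and 37 without WT replicate 3). At an adjusted p below 0.01 and over 2-fold, 4 genes were called, against 29 with DESeq2, 7 with quality weights, 16 with replicates 1 and 2 alone, 9 with the batch and 1 to 4 with a library left out. DESeq2 called 2 members in place of 0 and moved the median of *Cd5* and *Cd6* from 0.32 to 0.39. Members called remained at 0 in the other alternatives. *Egr3* changed sign with quality weights (-0.053) and with replicates 1 and 2 alone (-0.081), and ranged from -0.18 to 0.21 with a library left out. Ranges with a library left out also crossed 0 for *Nr4a3* (-0.00016 to 0.10), *Egr1* (-0.093 to 0.20), *Egr2* (-0.025 to 0.28), *Cd69* (-0.56 to 0.0058), *Alcam* (-0.33 to 0.067) and *S1pr1* (-0.038 to 0.020), and *S1pr1* was 0.032 with TMM, 0.029 with edgeR and 0.033 with DESeq2. The cause was not tested. Deviations of same-numbered libraries from their group means correlated at 0.139, 0.025 and 0.332, so the numbers were not taken to pair mice. With the replicate block, 21 genes were called at an adjusted p below 0.05, 2 passed the stricter threshold and 0 members were called. Some libraries, but not all, correlated best with the library of their own number, a hint from the data and not from the design. *Dusp1* had no adjusted p from DESeq2. For *Nr4a2*, with 51 to 106 counts, counting error adds to the spread.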
